A study of Mus musculus with 8 samples.

Results

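The genes described here are the ligands and receptors of axon guidance: the semaphorins, their plexin and neuropilin receptors, the ephrins and their Eph receptors, the Slits and Robos, and the netrins with their Unc5 and Dcc receptors. They were picked by a rule on gene symbols, with earlier results of these data known. Of the 31053 genes in the files 71 matched, of which 57 had enough counts to be tested. Expression was measured by single-cell RNA-seq in SN4741, a clonal mouse neural precursor line labelled wild type, in 4 libraries at the permissive temperature (37°C, 10% serum) and 4 at the non-permissive temperature (39°C, 0.5% serum for 48 hours). Both groups carry the same transgene, a heat-sensitive viral T antigen driven by the tyrosine hydroxylase promoter, which keeps the cells dividing at 37°C, and the line is polyploid with an unstable karyotype. Temperature and serum changed together and cannot be told apart. The labels do not say that replicates came from separate cultures, so p-values measure only the spread between these samples.

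Axons find their way by reading attractive and repulsive cues on other cells and in the matrix between them. Slits are secreted repellents read by Robo receptors, and netrins are secreted cues that attract through Dcc and repel through Unc5 receptors. Class 3 semaphorins are secreted and most of them act through a neuropilin that binds the ligand and a plexin that signals, whereas the other vertebrate semaphorin classes sit in the membrane or are anchored to it and bind plexins. Ephrins and Eph receptor kinases are both held at the cell surface and signal where cells touch. In the developing midbrain these families steer dopaminergic and other axons, and outside the nervous system they act in vessel growth and cell migration.

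The filtered data held 18351 cells, of which 8550 came from 37°C and 9801 from 39°C cultures. A library had 17166686 to 29633818 unique molecular identifiers (UMIs, each standing for 1 captured transcript) and the libraries had medians of 6676 to 16665 UMIs per cell. Replicate 1 at 39°C stood apart in size, with 985 cells. From 0 to 5 barcodes were shared by any pair of libraries. Cells assigned to the G1 phase made up 20.6% to 28.7% of a library at 37°C and 82.5% to 85.4% at 39°C. The label of neural precursor was met in part. Nes, the intermediate filament of neural progenitors, averaged 467 CPM (counts scaled to a common library total) at 37°C and 108 at 39°C, and Sox2, a progenitor transcription factor, averaged 55.4 and 76.5 CPM, while Sox1, Pax6, Hes5 and Fabp7 were at or near 0. Vim, on the same progenitor list, averaged 5396 and 5166 CPM and was not called, and Msi1 was called higher on 2 and 10 UMIs. Of 9 neuron markers 5 could be tested, 0 rose (by edgeR or DESeq2, also at an unadjusted p under 0.05) and 3 fell, and Dcx and Elavl4 had 0 UMIs. Of the 3, Tubb3 (log2 -0.87) did not pass in G1 cells, where its sign was opposite (log2 0.37, edgeR adjusted p 0.076). Of 10 mesenchymal markers 7 fell and Twist1 rose, and their summed level was 2351 to 2404 CPM at 37°C and 1140 to 1161 CPM at 39°C. Glial, endothelial and immune lists summed to at most 5.48 CPM in any library, with Sox10, Olig2 and Cdh5 at 0. Levels in the mesenchymal and neuron lists thus differed between temperatures too, and their part in the results was not tested.

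Guidance genes were more often higher at 39°C than lower. Of the 57 tested, 32 (56.1%) were higher, 5 (8.77%) were lower and 20 passed in neither direction (adjusted p under 0.05, edgeR's quasi-likelihood test on UMIs summed per library, adjusted over all 15810 genes tested). Over all genes tested 31.5% were higher and 30.5% were lower. The median log2 fold change was 0.40 over the guidance genes and 0.02 over all genes. In 29 of the 57 members the lowest library at 39°C exceeded the highest at 37°C, against 28.7% of all genes. In 4 of the 57 the ranges were separate the other way, against 28.0%. The stricter call of a large change asked for an adjusted p under 0.01 with a log2 difference beyond 1.5 either way. For rises it was met by 2 of the 57 members, Sema3c and Sema6a, against 2.21% of all genes. For falls it was met by 0 of the 57, against 3.62%. The deepest fall that passed the test was that of Sema4f (log2 -1.31). Among the 31 members that averaged at least 5 CPM, 23 rose and 2 fell. The share over all genes at that level was not counted, so these counts have no matched background. Of the tested members 15 averaged under 1 CPM.

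**Figure D1:**
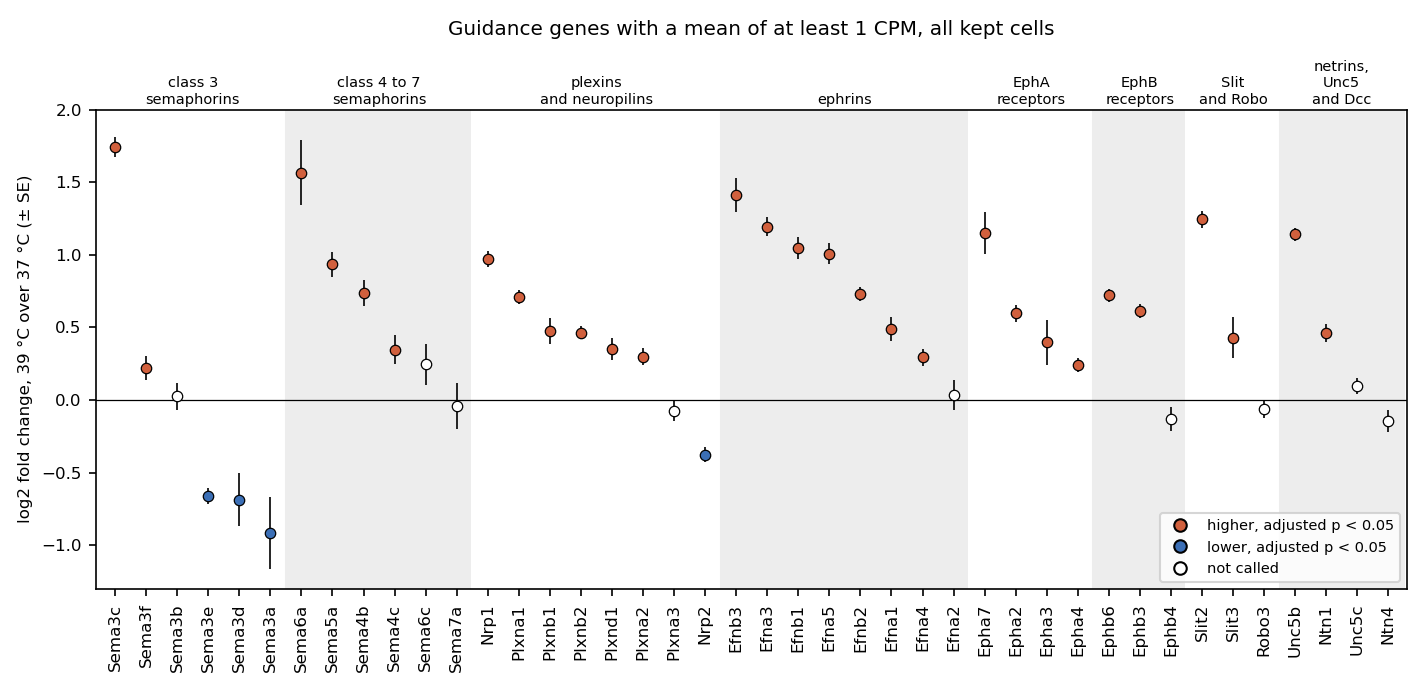
Log2 fold change at 39°C over 37°C with its standard error (vertical axis, 4 libraries per temperature) for the 42 guidance genes with a mean of at least 1 CPM, grouped by family along the horizontal axis. Filled points passed the test: 29 were higher, with Sema3c at the top, and 4 were lower, 3 of them class 3 semaphorins and the other Nrp2.

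Promoter sequence was examined as a feature that the choice of genes did not use. RefSeq promoters (GRCm38.p6, the assembly of mm10) matched 58 of the 71 members, and the 250 bases before each start were searched on both strands for 5 short motifs. These were TATAAA (the TATA box), CCAAT (the CCAAT box), GGGCGG (the GC box bound by Sp1), CACGTG (an E-box) and TGACTCA (the site bound by AP-1). A gene was counted where any of its promoters held the motif. The shares over all genes include genes that were not tested here, unlike the members set beside them. A share over tested genes alone was not counted. The GC box stood in 22 of 27 members called higher, 2 of 5 called lower and 14 of 18 not called, and in 35.4% of all 27025 genes (32.7% of their 32851 promoters). The TATA box stood in 2 of 27, 0 of 5 and 0 of 18, and in 14.3% of genes (12.4% of promoters). The CCAAT box stood in 6 of 27, 2 of 5 and 6 of 18, and in 37.5% of genes (33.9% of promoters). The E-box and the AP-1 site each stood in 1 member called higher and 1 not called, and in 6.86% and 5.16% of genes (6.02% and 4.46% of promoters). The GC box was thus common in members called higher and in those not called. Stretches before the RefSeq start of 4 abundant members are shown because Slit2 and Unc5b rose together and the neuropilin genes moved in opposite directions. They run 5′ to 3′ on the gene's strand and end before the first annotated exon base of the gene where one falls inside the window, with motif matches in capitals. Slit2 (chr5:47982905-47983137) held 3 GC boxes and a TATA box that begins 28 bases before the RefSeq start. Unc5b (chr10:60831582-60831831, minus strand) held 2 GC boxes, both in reverse, and Nrp1 (chr8:128358823-128359072) held 1. The Nrp1 stretch comes before the RefSeq start but lies inside the gene as annotated in GENCODE, which begins farther upstream, and overlaps none of its exons. Nrp2 (chr1:62703067-62703284) held 4, of which a pair in reverse share a base.
Slit2: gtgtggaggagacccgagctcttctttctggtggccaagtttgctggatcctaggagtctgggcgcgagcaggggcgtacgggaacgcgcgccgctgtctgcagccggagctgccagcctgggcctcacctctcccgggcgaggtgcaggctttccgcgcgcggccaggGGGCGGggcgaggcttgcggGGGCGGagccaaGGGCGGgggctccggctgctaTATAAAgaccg
Unc5b: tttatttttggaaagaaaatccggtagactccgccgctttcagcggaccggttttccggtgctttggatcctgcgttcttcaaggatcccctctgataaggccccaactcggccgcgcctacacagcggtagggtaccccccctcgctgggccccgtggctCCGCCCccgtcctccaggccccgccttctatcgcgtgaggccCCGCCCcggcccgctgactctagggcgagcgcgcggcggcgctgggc
Nrp1: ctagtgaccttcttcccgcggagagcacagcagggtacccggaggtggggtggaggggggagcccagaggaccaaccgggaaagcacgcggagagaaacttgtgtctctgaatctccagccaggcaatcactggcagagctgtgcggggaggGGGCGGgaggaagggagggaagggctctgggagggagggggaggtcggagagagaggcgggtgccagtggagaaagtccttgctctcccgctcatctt
Nrp2: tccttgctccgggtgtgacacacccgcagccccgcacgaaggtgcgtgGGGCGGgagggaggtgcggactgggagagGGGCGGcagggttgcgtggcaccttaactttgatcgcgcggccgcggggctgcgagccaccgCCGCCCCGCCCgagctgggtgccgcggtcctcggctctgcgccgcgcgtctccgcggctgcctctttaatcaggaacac
A match of letters is a description of the sequence and not a binding site.

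Slit2 was the most abundant ligand, and it rose while the Robo genes stayed at low levels. The Chromium kit counts a transcript once, at its 3′ end, so CPM does not scale with gene length and levels of different genes are set side by side on that scale. Slit2 (chr5:47983138-48307733 in mm10) stood at 131, 117, 111 and 107 CPM in replicates 1 to 4 at 37°C and at 269.8, 269, 286 and 279.8 CPM at 39°C. The groups were far apart, and replicate 1 was the highest of the 37°C libraries. The rise was 2.37-fold (log2 1.24 ± 0.06 SE, n = 4 per group, edgeR adjusted p 5.8e-13). Slit2 supplied 97.6% to 98.5% of all Slit UMIs at 37°C and 98.7% to 99.0% at 39°C. Slit3 averaged 2.22 and 2.95 CPM, a log2 rise of 0.43 ± 0.14 (edgeR adjusted p 0.013), and its groups overlapped. That call was lost without replicate 1 at 37°C (adjusted p 0.059) or replicate 3 at 39°C (0.078), and with equal numbers of cells per library (0.28). Slit1 stayed under 1 CPM in every library.

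Robo3, a divergent Robo best known from commissural axons, was the main Robo here. It stood at 22.1, 19.8, 21.6 and 20.1 CPM at 37°C and at 20.6, 19.0, 18.6 and 22.2 CPM at 39°C, and the groups overlapped throughout. The difference was log2 -0.06 ± 0.06 (edgeR adjusted p 0.42). Robo3 held 91.9% to 95.2% of Robo UMIs at 37°C and 90.7% to 93.1% at 39°C. Robo1, a main Slit receptor on axons, averaged 0.43 CPM at 37°C and 0.76 CPM at 39°C, and this rise passed the test (log2 0.84 ± 0.28, edgeR adjusted p 0.013). Robo2 stayed near 1 CPM at both temperatures, and Robo4, the endothelial Robo, had 1 UMI at 37°C and 3 at 39°C.

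Among the Unc5 and Dcc receptors Unc5b rose and Dcc was not detected. Unc5b (chr10:60762593-60831581, minus strand), which mediates repulsion by netrin and also guides vessels, stood at 47.7, 44.4, 50.3 and 46.4 CPM at 37°C and at 104, 101, 105 and 106 CPM at 39°C. The lowest library at 39°C was above the highest at 37°C by a wide margin, a 2.20-fold rise (log2 1.14 ± 0.05, edgeR adjusted p 1.2e-13). Its share of Unc5 UMIs was 64.5% to 67.5% at 37°C and 78.8% to 81.2% at 39°C. Unc5c, the other abundant member, stood at 26.3, 22.8, 24.2 and 25.1 CPM at 37°C and at 24.1, 27.0, 27.8 and 26.0 CPM at 39°C. These groups overlapped (log2 0.10 ± 0.06, edgeR adjusted p 0.15). Unc5a had 3 UMIs at each temperature. Dcc and Unc5d had 0 UMIs in all 8 libraries, which allows up to 0.0265 CPM at 37°C and 0.0308 CPM at 39°C (3 counts over the group, counting error only).

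Of the netrins, Ntn1, the classical secreted cue, rose from 25.1, 25.2, 29.6 and 27.6 CPM at 37°C to 38.8, 34.7, 36.3 and 38.6 CPM at 39°C. All libraries at 39°C were above all at 37°C (log2 0.46 ± 0.06, edgeR adjusted p 1.1e-06). Ntn4, a netrin of basement membranes, averaged 11.0 CPM at 37°C and 9.97 CPM at 39°C and did not pass (edgeR adjusted p 0.11).

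The class 3 semaphorins split. Sema3c rose the most of the abundant guidance genes and Sema3a, Sema3d and Sema3e fell. Sema3c (chr5:17574281-17730268), a secreted semaphorin known for attracting some cortical and midbrain axons and for its part in the heart outflow tract, stood at 34.6, 28.1, 28.0 and 25.0 CPM at 37°C and at 96.8, 95.3, 96.0 and 99.0 CPM at 39°C. The 39°C libraries were within a few CPM of each other and all above the 37°C ones, a 3.34-fold rise (log2 1.74 ± 0.07, edgeR adjusted p 6.3e-14). Sema3e, which signals through Plxnd1 without needing a neuropilin, stood at 24.8, 23.7, 24.6 and 26.3 CPM at 37°C and at 15.5, 16.5, 15.3 and 15.4 CPM at 39°C. The groups did not overlap and the fall was to 0.632 of the 37°C level (log2 -0.66 ± 0.05, edgeR adjusted p 2.7e-09).

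The classical repellent Sema3a averaged 1.38 CPM at 37°C and 0.72 CPM at 39°C (log2 -0.91 ± 0.25, edgeR adjusted p 0.0032), with 1 library at 39°C inside the 37°C range. Sema3d went from a mean of 1.59 to 0.98 CPM with no overlap (log2 -0.68 ± 0.18, adjusted p 0.0032). Sema3f, a ligand of Nrp2, rose from 6.10 to 7.23 CPM at 37°C to 7.31 to 8.35 CPM at 39°C (log2 0.22 ± 0.08, edgeR adjusted p 0.026). Sema3b averaged 9.38 CPM at 37°C and 9.42 CPM at 39°C (log2 0.03 ± 0.09, edgeR adjusted p 0.83). Sema3g stayed under 1 CPM. By UMIs, Sema3c was 34.7% to 44.1% of the class at 37°C and 72.5% to 75.1% at 39°C.

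The neuropilin co-receptors moved in opposite directions. Nrp1 (chr8:128358604-128503363), which binds Sema3a and also vascular endothelial growth factor, stood at 84.2, 79.9, 78.7 and 79.1 CPM at 37°C and at 175, 149.5, 156 and 151 CPM at 39°C. Every 39°C library was above every 37°C library, a 1.96-fold rise (log2 0.97 ± 0.05, edgeR adjusted p 6.8e-12). Nrp2 (chr1:62703285-62818695), the preferred neuropilin of Sema3f, stood at 276, 239.9, 239.6 and 244 CPM at 37°C and at 184, 199.5, 193 and 194 CPM at 39°C. Replicate 1 was the highest at 37°C, and the groups did not overlap (0.770 of the 37°C level, log2 -0.38 ± 0.05, edgeR adjusted p 3.9e-06). The share of neuropilin UMIs that came from Nrp1 was 23.4% to 25.0% at 37°C and 42.8% to 48.8% at 39°C.

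Plexins rose or held. Plxnb2, a receptor of class 4 semaphorins and the most abundant plexin, stood at 176, 169, 180.2 and 184 CPM at 37°C and at 241, 246, 240.6 and 252 CPM at 39°C. It rose without overlap (log2 0.46 ± 0.05, edgeR adjusted p 3.4e-08) and kept a similar share of plexin UMIs, 62.1% to 63.8% at 37°C and 60.9% to 63.3% at 39°C. Plxna1, a signalling partner of the neuropilins, stood at 57.5, 51.5, 54.4 and 56.5 CPM at 37°C and at 94.9, 89.4, 87.5 and 87.5 CPM at 39°C. It too rose without overlap (log2 0.71 ± 0.05, edgeR adjusted p 1.7e-10). Plxna2, Plxnb1 and Plxnd1 rose by smaller amounts, log2 0.30 to 0.47, and Plxna3 did not pass (log2 -0.07 ± 0.07, edgeR adjusted p 0.39). Plxnb3 and Plxnc1 stayed under 1 CPM, Plxna4 had 0 UMIs at 37°C and 2 at 39°C, and the 3 antisense RNAs named for Plxna4 matched the symbol rule and held 0 to 1 UMI at each temperature.

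**Figure D2:**
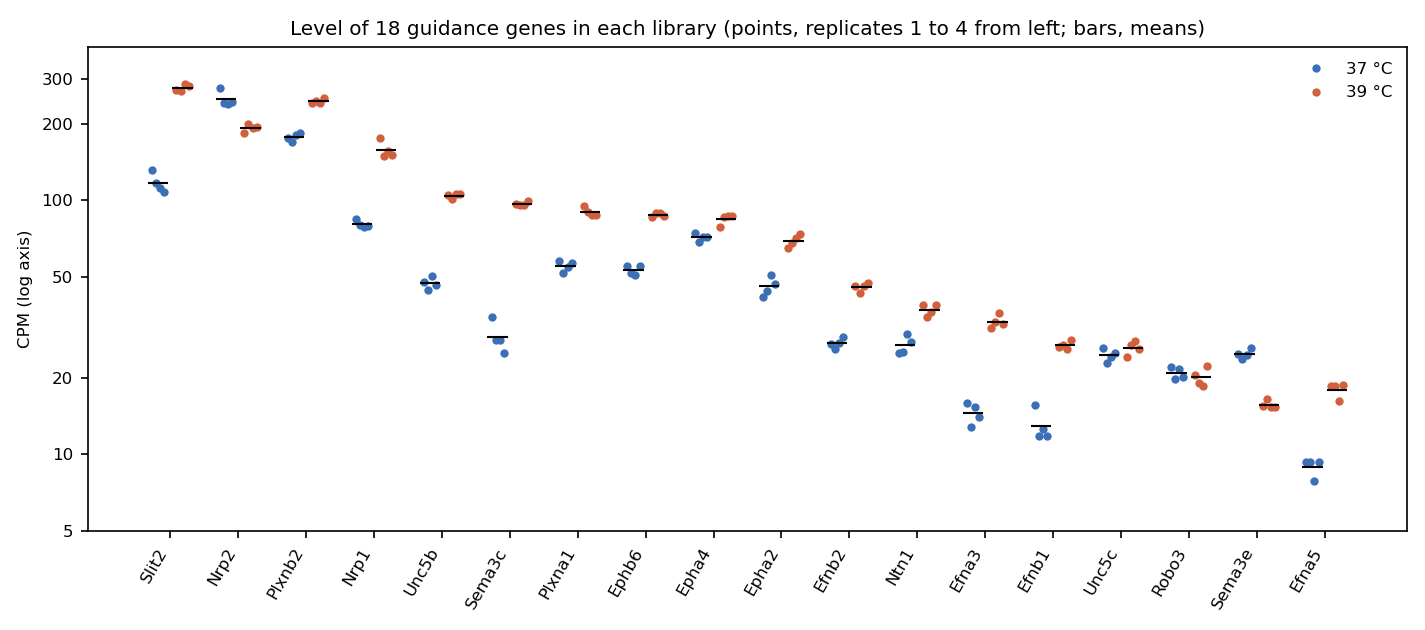
CPM on a log axis for 18 guidance genes in each library, 37°C in blue and 39°C in orange, with bars at the means of 4 libraries. The 39°C points sit above the 37°C points for most genes and below them for Nrp2 and Sema3e, while those of Robo3 and Unc5c overlap.

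Of the 13 membrane-bound or anchored semaphorins 11 were tested. Against 31.5% and 30.5% of all genes, 5 rose and 1 fell, all at low levels. Sema5a stood at 6.20, 6.16, 6.66 and 7.13 CPM at 37°C and at 12.8, 14.3, 12.3 and 10.7 CPM at 39°C. The groups did not overlap (log2 0.93 ± 0.09, edgeR adjusted p 2.0e-08). Sema6a, a transmembrane ligand of A-type plexins, stood at 0.343, 0.698, 0.631 and 0.386 CPM at 37°C and at 1.59, 1.36, 1.52 and 1.62 CPM at 39°C. It was the other member past the stricter limit (log2 1.57 ± 0.22, edgeR adjusted p 4.9e-06), on 57 UMIs at 37°C and 149 at 39°C. Sema4f was the one that fell, from 0.583, 0.388, 0.280 and 0.386 CPM to 0.227, 0.114, 0.177 and 0.154 CPM (log2 -1.31 ± 0.39, edgeR adjusted p 0.0064), on 46 and 16 UMIs. Sema4b, Sema4c and Sema4g also rose, and Sema5b and Sema6d had 0 UMIs.

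Of the 8 ephrins 7 were higher, against 31.5% of all genes, and Efna2 was the exception (log2 0.03 ± 0.10, edgeR adjusted p 0.82). In G1 cells 6 of 8 were higher, against 24.8% of all genes. Efna3, an ephrin held by a lipid anchor, stood at 15.9, 12.8, 15.3 and 14.0 CPM at 37°C and at 31.4, 33.1, 35.9 and 32.5 CPM at 39°C. The levels more than doubled without overlap (2.29-fold, log2 1.19 ± 0.06, edgeR adjusted p 6.2e-12). Efna5, of the same class and known from the retinal map in the midbrain, stood at 9.29, 9.30, 7.82 and 9.30 CPM at 37°C and at 18.5, 18.5, 16.2 and 18.7 CPM at 39°C. Replicate 3 was the lowest at both temperatures, and the groups did not overlap (log2 1.01 ± 0.07, edgeR adjusted p 4.0e-10). Efna4 rose less, from 18.9, 19.0, 20.1 and 19.7 CPM to 21.7, 23.5, 23.6 and 26.2 CPM (log2 0.30 ± 0.06, edgeR adjusted p 0.00019), and with equal numbers of cells per library its adjusted p was 0.051.

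The B-type ephrins span the membrane and can signal backward into the cell that carries them. Efnb1 stood at 15.7, 11.8, 12.6 and 11.8 CPM at 37°C and at 26.5, 26.9, 25.9 and 28.3 CPM at 39°C (log2 1.05 ± 0.07, edgeR adjusted p 3.3e-10). Efnb2 stood at 27.1, 26.0, 27.4 and 28.9 CPM and at 45.8, 43.0, 46.1 and 47.1 CPM (log2 0.73 ± 0.05, edgeR adjusted p 1.5e-10). Efnb3, a midline cue of the spinal cord, stood at 2.30, 2.36, 2.21 and 1.61 CPM and at 5.56, 5.15, 6.02 and 5.82 CPM, the steepest rise of the ephrins (2.66-fold, log2 1.41 ± 0.12, edgeR adjusted p 3.7e-09). None of the B-type ephrins overlapped between temperatures.

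Eph receptors rose in 7 of 10 tested cases, against 31.5% of all genes. Falls numbered 0, by edgeR or DESeq2 and also at an unadjusted p under 0.05, against 30.5% of all genes. In G1 cells 2 of 5 EphA and 2 of 4 EphB receptors tested were higher, against 24.8% of all genes. Ephb6, which lacks kinase activity, was the most abundant EphB, at 55.1, 51.8, 50.6 and 54.8 CPM at 37°C and at 85.5, 88.7, 88.7 and 86.8 CPM at 39°C. It rose without overlap (log2 0.72 ± 0.04, edgeR adjusted p 4.6e-11). Epha4, which binds ephrins of both types, was the most abundant EphA, at 74.2, 68.3, 71.5 and 71.8 CPM at 37°C and at 78.4, 86.0, 86.9 and 86.7 CPM at 39°C. Its rise was small (log2 0.24 ± 0.05, edgeR adjusted p 0.00017), with replicate 1 the lowest at 39°C. Epha2, widely expressed in epithelia and tumour cells, rose from 41.7, 44.0, 50.9 and 46.7 CPM to 64.7, 67.6, 70.9 and 73.7 CPM (log2 0.60 ± 0.06, edgeR adjusted p 3.3e-08).

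The remaining Eph receptors were scarce, apart from Ephb3, which averaged 20.6 and 31.5 CPM and rose (log2 0.62 ± 0.05, edgeR adjusted p 1.7e-09), and Ephb4, which averaged 7.87 and 7.19 CPM and did not pass (edgeR adjusted p 0.17). Epha7 stood at 1.20, 1.28, 1.16 and 1.19 CPM at 37°C and at 2.89, 2.99, 2.34 and 2.58 CPM at 39°C, without overlap (log2 1.15 ± 0.14, edgeR adjusted p 9.1e-07). Ephb2 had 3 UMIs over the 37°C libraries and 17 over the 39°C ones, or 0.0265 CPM (95% exact Poisson interval 0.00546 to 0.0774) and 0.175 CPM (0.102 to 0.28). Its test passed (edgeR adjusted p 0.018), but not without replicate 1 at 37°C (0.058) or replicate 1 at 39°C (0.079), and its groups overlapped. Epha6, Epha8 and Ephb1 had 0 UMIs and Epha1 had 1.

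Genes that carry or modify guidance signals were counted in 3 lists, beside 31.5% higher and 30.5% lower over all genes. Of 19 other cues and co-receptors 14 were tested, 6 rose (42.9%) and 3 fell (21.4%), with a median log2 fold change of 0.34. Among those averaging at least 5 CPM at either temperature the 3 largest rises were Rgmb, a co-receptor for bone morphogenetic proteins and ligand of Neo1 (7.57 ± 0.79 to 13.5 ± 0.78 CPM, mean ± SD, n = 4, log2 0.83, edgeR adjusted p 1.7e-08), Sdc1, a heparan sulphate proteoglycan (103 ± 4.13 to 157 ± 2.34 CPM, log2 0.61), and Cd44, the hyaluronan receptor (84.3 ± 3.31 to 120.5 ± 3.5 CPM, log2 0.51). The 3 falls were Gpc1, a glypican (77.0 ± 8.53 to 61.9 ± 3.46 CPM, log2 -0.31), Adam10, a protease that sheds ephrins (52.9 ± 1.59 to 44.0 ± 2.16 CPM, log2 -0.27), and Ncam1, a cell adhesion molecule (120 ± 2.63 to 99.9 ± 3.67 CPM, log2 -0.26). Of these 3, Gpc1 and Ncam1 did not pass in G1 cells (log2 -0.12 and -0.0033, edgeR adjusted p 0.17 and 0.97).

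All 23 GTPase switches and regulators were tested, with 11 higher (47.8%), 6 lower (26.1%) and a median log2 fold change of 0.11. Rnd3, which restrains cell contraction, rose from 178 ± 10.5 to 324 ± 23 CPM (log2 0.86, edgeR adjusted p 1.4e-10). Tiam1 and Vav2, which activate Rac, rose by log2 0.72 and 0.60. The largest falls among those reaching 5 CPM were Farp1, a plexin-linked exchange factor (69.1 ± 2.68 to 39.9 ± 3.02 CPM, log2 -0.79, edgeR adjusted p 1.7e-10), and the small GTPases Rras (log2 -0.53) and Rap1a (log2 -0.39), on which plexins act.

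Of 35 kinases, adaptors and cytoskeletal genes 34 were tested, with 15 higher (44.1%), 12 lower (35.3%) and a median of 0.14. Ptk2, the focal adhesion kinase, rose from 107 ± 4.06 to 191 ± 6.05 CPM (log2 0.84, edgeR adjusted p 7.4e-12), Abl2 rose by log2 0.57, and Dpysl5, a collapsin response mediator, rose from 2.15 ± 0.32 to 5.10 ± 0.25 CPM (log2 1.24). Cfl1, the actin-severing protein cofilin, fell from 989 ± 102 to 446 ± 14.0 CPM (log2 -1.15, edgeR adjusted p 1.6e-11), and the adaptor Gipc1 and the actin regulator Vasp fell by 0.54 and 0.46 on the log2 scale.

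Because most cells at 39°C were in G1 and most at 37°C were not, the temperatures were also compared within G1 cells. The sums held 5352538 to 7430745 UMIs per library at 37°C and 14806506 to 23965675 at 39°C. Of 51 members tested in G1 cells 21 were higher and 6 lower, against 24.8% and 22.4% of all genes tested there, with medians of log2 0.33 over the members and 0.04 over all genes. All 21 were also higher in all cells, and all 5 that fell in all cells fell in G1 cells. For 23 of the 32 members called higher in all cells the log2 fold change was smaller in G1 cells, and 11 of the 32 were not called there: Efna4, Epha3, Epha7, Ephb2, Plxna2, Plxnd1, Robo1, Sema3f, Sema4c, Sema4g and Slit3. Of these, Epha3 and Slit3 had the opposite sign in G1 cells (log2 -0.51 and -0.30, edgeR adjusted p 0.07 and 0.28), against 0.40 and 0.43 in all cells. No member was called in opposite directions. Such shares over all genes called in all cells were not counted, so these counts have no matched background. The 32 were picked by their call in all cells. The G1 sums at 37°C also held fewer UMIs than the full libraries (26238596 to 29633818), so a lost call need not mean no difference.

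Sema3c in G1 cells stood at 55.9, 58.0, 45.8 and 43.9 CPM at 37°C and at 106, 103, 106 and 109 CPM at 39°C. The groups remained apart, with a log2 difference of 1.05 ± 0.07 (edgeR adjusted p 2.1e-11) in place of 1.74 in all cells. Slit2 stood at 200.5, 193, 165 and 176 CPM and at 291, 289, 307 and 303 CPM, a log2 difference of 0.69 ± 0.06 (edgeR adjusted p 1.3e-09) in place of 1.24. Unc5b, Nrp1, Efna3 and Efnb1 rose by log2 0.93, 0.72, 0.93 and 0.76, Sema6a by 1.23 ± 0.34 (edgeR adjusted p 0.0041) and Efna5 by 1.05 ± 0.10. Epha7 averaged 2.29 and 3.00 CPM in G1 cells and did not pass (log2 0.38 ± 0.21, edgeR adjusted p 0.14), although it passed when phases were scored in each library by itself (0.00095).

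Several differences were as large or larger in G1 cells. Efnb3 stood at 1.23, 1.86, 1.38 and 0.731 CPM at 37°C and at 5.71, 5.12, 5.94 and 6.07 CPM at 39°C (log2 2.13 ± 0.22, edgeR adjusted p 2.4e-08). Nrp2 stood at 320, 295, 284 and 282 CPM and at 184, 199, 198 and 201 CPM, without overlap (log2 -0.59 ± 0.05, edgeR adjusted p 4.6e-09). Sema3e fell by 0.85 ± 0.07 on the log2 scale (edgeR adjusted p 2.4e-09), Sema3d by 1.49 ± 0.24 and Sema3a by 1.42 ± 0.34. Robo2 was the one member called lower in G1 cells alone, from a mean of 2.40 to 1.06 CPM (log2 -1.11 ± 0.27, edgeR adjusted p 0.0016). Sema4f fell in G1 cells (log2 -2.07 ± 0.57, edgeR adjusted p 0.0042), but not without replicate 1 at 37°C (0.093).

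**Figure D3:**
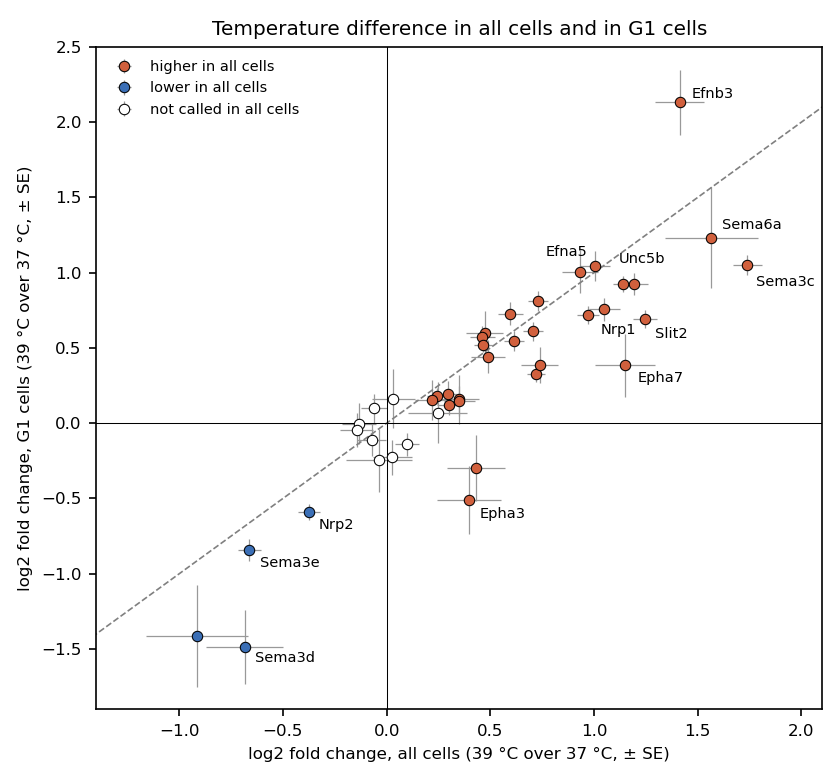
Log2 fold change at 39°C over 37°C in all cells (horizontal) and in G1 cells (vertical), with standard errors, for the 42 guidance genes with a mean of at least 1 CPM; the dashed line marks equality. Sema3c, Slit2 and Epha7 sit below the line, Efnb3 sits above it, and the falls of Nrp2, Sema3e and Sema3d are deeper in G1 cells.

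Within a temperature, cycling cells (assigned to S or G2M) held less of most called guidance genes than G1 cells of the same library. At 37°C 4 of 53 members tested were higher in cycling cells and 21 lower, against 24.1% and 19.7% of all genes. At 39°C 5 of 51 were higher and 24 lower, against 19.0% and 21.4%, on sums of 2360180 to 4251033 UMIs from 144 to 610 cycling cells per library. At both temperatures 15 members were lower and 2, Epha2 and Robo3, were higher, and 0 were called in opposite directions. How often genes in general were called alike or oppositely at both temperatures was not counted. The counts over both temperatures thus have no matched background. Epha2 was higher in cycling cells by log2 0.20 ± 0.05 at 37°C and 0.15 ± 0.05 at 39°C (edgeR adjusted p 0.0011 and 0.013), and Robo3 by 0.28 ± 0.08 and 0.28 ± 0.09 (0.0012 and 0.0066). With DESeq2 the count of higher members was 0 at 37°C (4 at an unadjusted p under 0.05) and 1 at 39°C.

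Sema3c had the widest gap among the abundant members. It spanned 43.7 to 57.9 CPM in G1 cells and 20.7 to 28.4 CPM in cycling cells at 37°C, and 102 to 108 and 46.8 to 60.2 CPM at 39°C, so the phases did not overlap (log2 -1.11 ± 0.06 and -0.95 ± 0.05, edgeR adjusted p 1.3e-78 and 5.8e-70). Slit2 spanned 164 to 200.6 CPM in G1 cells and 92.9 to 112 CPM in cycling cells at 37°C, and 289 to 305 and 169 to 188 CPM at 39°C (log2 -0.87 ± 0.03 and -0.73 ± 0.03). Ephb6, Nrp1 and Unc5b were lower in cycling cells by 0.26 to 0.62 on the log2 scale at the 2 temperatures. Cycling cells at 39°C still held more Slit2 and Sema3c than cycling cells at 37°C, with no overlap between libraries.

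Whether the gap between phases differed between temperatures was tested directly, as an interaction. The cycling cells of a library were 687 to 1126 in S and 566 to 997 in G2M at 37°C. At 39°C they were 115 to 423 in S and 29 to 187 in G2M, so S cells weighed more there. Runs with G2M cells alone are given below, and the part of this mix was otherwise not tested. Of 52 members tested 4 gave a higher log2 ratio of cycling to G1 cells at 39°C (Nrp2, Plxnd1, Sema3e and Slit2) and 6 a lower one (Efnb2, Efnb3, Ntn1, Plxna1, Plxnb2 and Sema3b), against 5.13% and 11.1% of all genes. This test leaned on scaling. Over all genes the split was 757 higher to 1641 lower with TMM factors, 1076 to 1041 with RLE factors and 1673 to 609 with library totals, and the median log2 difference moved from -0.06 with TMM to 0.06 with totals. Nrp2, Ntn1, Plxnb2, Plxnd1, Sema3e and Slit2 were called under all 3 scalings, although Ntn1 and Plxnd1 did not pass with DESeq2 (adjusted p 0.091 and 0.082), and Sema3e and Plxnb2 under every alternative tried.

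Sema3e gave the largest of these changes among members above 5 CPM. At 37°C it spanned 25.1 to 27.5 CPM in G1 cells and 23.5 to 27.1 CPM in cycling cells, which overlapped, and at 39°C 13.8 to 15.5 and 15.9 to 25.3 CPM, which did not. The interaction was 0.68 ± 0.12 on the log2 scale (edgeR adjusted p 3.3e-07). Plxnb2 spanned 174 to 179 CPM and 170 to 191 CPM at 37°C, and 246 to 260 CPM in G1 and 201 to 222 CPM in cycling cells at 39°C, so the phases separated only at 39°C (-0.29 ± 0.05, edgeR adjusted p 1.5e-08). Ntn1 showed the same order, with phases overlapping at 37°C and means of 38.5 and 31.2 CPM at 39°C, where the lowest G1 library was just under the highest of cycling cells (-0.42 ± 0.10, edgeR adjusted p 0.00052).

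Nrp2 went the other way. Its means were 294 CPM in G1 and 244 CPM in cycling cells at 37°C and 195 and 189 CPM at 39°C (0.21 ± 0.04, edgeR adjusted p 3.2e-05). Slit2 gave a small interaction of 0.13 ± 0.05 (edgeR adjusted p 0.038), which did not pass without replicates 1, 2 or 4 at 37°C or replicates 3 or 4 at 39°C (adjusted p 0.055 to 0.21). With G2M cells alone in place of all cycling cells both signs turned, to -0.18 for Nrp2 (adjusted p 0.17) and -0.26 for Slit2 (0.034). Plxnd1 (0.42 ± 0.13, edgeR adjusted p 0.012) did not pass without replicate 2 at 37°C (0.096) or with G2M cells alone (0.16). Efnb2, Efnb3, Plxna1 and Sema3b lost the call with library totals (adjusted p 0.081 to 0.42), with DESeq2 (0.19 to 0.39) and with G2M cells alone (0.066 to 0.75). Efnb3 also lost it without replicate 1, 3 or 4 at 37°C or replicate 1 or 4 at 39°C (0.053 to 0.13), Plxna1 without replicate 3 or 4 at 37°C or replicate 1 at 39°C (0.107 to 0.19), and Sema3b without replicate 3 or 4 at 37°C or replicate 1 or 3 at 39°C (0.052 to 0.15).

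**Figure D4:**
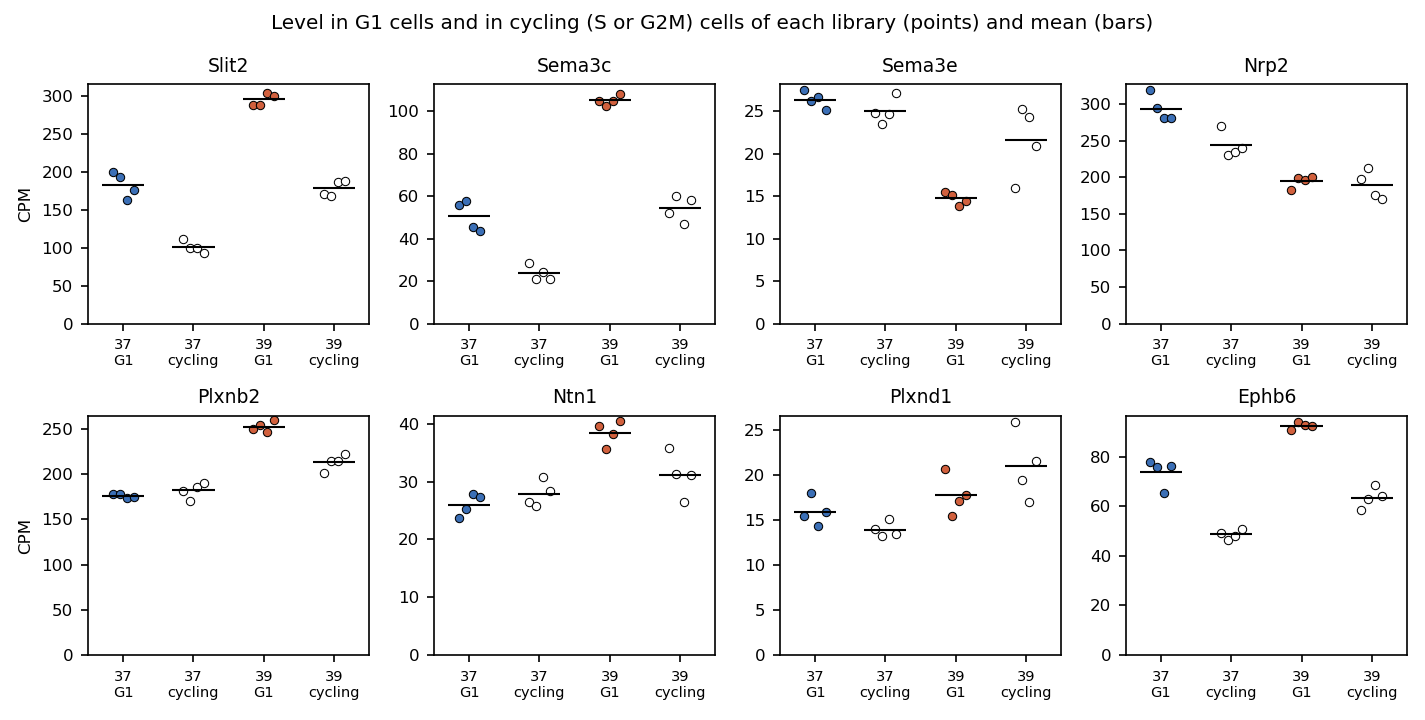
CPM of 8 guidance genes in G1 cells (filled) and cycling cells (open) of each library at 37°C and 39°C, with bars at the means of 4 libraries and axes from 0. Slit2, Sema3c and Ephb6 are lower in cycling cells at both temperatures, while Sema3e and Plxnb2 separate by phase at 39°C only and Ntn1 nearly so.

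Members also differed in how evenly they were spread over the cells of a library. Each cell was thinned to 5000 UMIs, which left out 668 shallower cells at 37°C and 1668 at 39°C, and the variance of a gene's UMIs per cell was divided by its mean, a ratio of 1 for pure counting noise. This is a description with no test, over 27 members. Nrp2 was the most uneven, with ratios of 1.92 to 2.44 at 37°C and 1.94 to 2.16 at 39°C and up to 26 UMIs in a thinned cell, while Plxnb2, at a similar mean, gave 1.06 to 1.14 and 1.19 to 1.22. Slit2 gave 1.40 to 1.59 at 37°C and 1.65 to 1.79 at 39°C. Robo3 gave 1.13 to 1.57 at 37°C and 1.18 to 1.30 at 39°C at only 0.103 and 0.106 UMIs per cell, while Efna4 and Ephb3, near the same mean at 37°C, gave 0.988 to 1.01 and 0.990 to 1.04. In G1 cells alone the mean ratio of Nrp2 was 2.40 at 37°C and 2.13 at 39°C, that of Slit2 1.64 and 1.63, and that of Robo3 1.20 and 1.18.

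**Figure D5:**
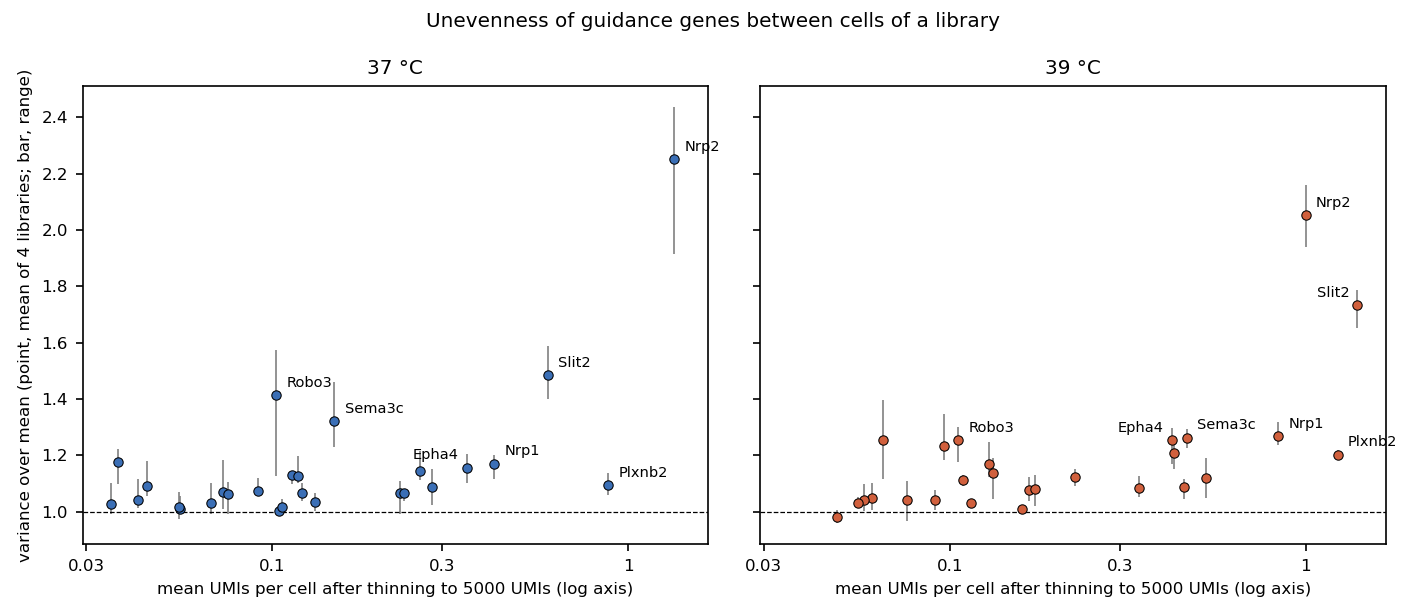
Variance over mean of UMIs per cell (vertical) against mean UMIs per cell (horizontal, log axis) for 27 guidance genes after thinning to 5000 UMIs, at 37°C (left) and 39°C (right), with points at the mean and bars at the range of 4 libraries. Most genes lie near the dashed line at 1, and Nrp2 and Slit2 lie well above it at both temperatures.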

How the data were processed

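Per the labels, cells were captured with the Chromium 3′ V3 kit, and the authors aligned reads to mm10 with Cell Ranger 3.0.1 and deposited 1 matrix of UMI counts for each library, whole numbers with no normalization. Following the study's methods, cells were dropped for a mitochondrial share above 15% (334), for more than 6000 genes (440) or for fewer than 200 (29). No doublet caller was run, so the upper limit on genes was the only guard. Phases came from Seurat 5.3.0 CellCycleScoring on all kept cells together (42 of 43 S genes and 52 of 54 G2M genes found, with no guidance gene among them). Counts were summed per library, since cells are not replicates, or per library and phase. Genes that averaged 1 count or more per sum were tested with edgeR 4.0.16 (R 4.3.3, TMM factors, glmQLFit and glmQLFTest), on temperature alone, or with the library as a block for phases and their interaction, with Benjamini-Hochberg adjustment over all genes tested. Standard errors are the log2 fold change over the square root of F. CPM uses TMM-scaled totals, except that pooled CPM with exact Poisson intervals and limits for 0 counts use plain totals. No library was a copy of another, since chi-square divided by its degrees of freedom was 2.74 to 20.2 between replicates.

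Depth was 5352538 to 29633818 UMIs per sum at 37°C and 2360180 to 28096213 at 39°C, and counting intervals cover counting error only. The procedure was also run on simulated data, in which 200 genes of higher counts carried a log2 change of 1. The comparison of phases within 39°C was not simulated, and low-count genes carried no change there. The members and lists were chosen with earlier results of these data known. Members named in the text are those with adjusted p under 0.05 and a log2 difference of 1 or more either way, the 3 of highest mean in each family and those called in the interaction, with others given by counts or beside a partner. In each list up to 3 called rises and falls with at least 5 CPM at either temperature are named. Alternatives were other scaling factors, other filters on counts or cells, DESeq2 1.42.0, equal cells per library, the replicate number as a block, other phase assignments, another thinning depth and leaving out each library. Replicate numbers were not treated as pairs in the main tests.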

Additional observations from a re-analysis of the deposited data

Results flagged for a closer look

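In 6 of 56 sets of 4 libraries (28 named genes at each temperature) 1 library stood apart by Dixon's test at the 95% level (critical ratio 0.829), where chance gives about 1 in 20. These were Efna5 in replicate 3 at 37°C (7.82 CPM, lowest) and replicate 3 at 39°C (16.2 CPM, lowest), Epha4 in replicate 1 at 39°C (78.4 CPM, lowest), Nrp2 in replicate 1 at 37°C (276 CPM, highest), Sema3b in replicate 1 at 39°C (7.21 CPM, lowest) and Sema3e in replicate 2 at 39°C (16.5 CPM, highest). The calls of Efna5, Epha4, Nrp2 and Sema3e in all cells held without each library in turn.

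The log2 ratio of cycling to G1 cells was called different between temperatures, by a test of the difference itself, for 10 members. Of 52 members tested, 7.69% gave a higher ratio at 39°C and 11.5% a lower one. Over all genes the shares were 5.13% and 11.1%, so the members were close to the background. Efnb2, Efnb3, Plxna1 and Sema3b lost the call with library totals, and Nrp2 and Slit2 turned sign with G2M cells alone. The difference (39°C less 37°C) was 0.68 for Sema3e, 0.42 for Plxnd1, 0.21 for Nrp2 and 0.13 for Slit2, and it was -0.90 for Efnb3, -0.55 for Sema3b, -0.42 for Ntn1, -0.34 for Efnb2, -0.29 for Plxnb2 and -0.22 for Plxna1. Those of Efnb3 and Sema3b rest on few UMIs in cycling cells at 39°C, where they averaged 5.67 and 4.95 CPM.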

How the results depend on the processing

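The counts of members higher and lower at 39°C stayed within 1.5 times under every alternative tried, at 29 to 31 and 5 to 6 without each library in turn for all cells and 21 to 23 and 5 to 7 for G1 cells, and likewise 29 to 32 and 20 to 22 for the lists of effectors and other cues. Cycling cells at 37°C held 4 higher members, 0 with DESeq2, 2 with no library block and 3 to 5 without each library in turn, and 19 to 21 lower. Over all genes that comparison split 3575 higher to 2918 lower with TMM and 2893 to 3708 with library totals. At 39°C the count of higher members was 5, 1 with DESeq2, 3 with no library block and 3 to 6 without each library in turn (3 without replicate 1 or replicate 4 at 39°C), and the count of lower members was 24, 14 with G2M cells alone and 21 to 25 without each library. For the interaction the higher count was 4, 8 with library totals, 1 with G2M cells alone and 2 to 4 without each library (2 without replicate 2 at 37°C), and the lower count was 6, 3 with RLE factors, 2 with library totals, 1 with DESeq2 and 3 to 6 without each library (3 without replicate 3 at 37°C). The cause was not tested.

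Sema3b, not called in all cells, turned sign without replicate 2 or 3 at 37°C and without replicate 2, 3 or 4 at 39°C, and its log2 fold change ran from -0.021 to 0.11 over the libraries left out in turn. With phases scored in each library by itself Sema3b (0.051), Slit3 (0.0081) and Unc5c (0.00064) turned sign in G1 cells, none of them called. With G2M cells alone the interaction turned to -0.18 for Nrp2 and -0.26 for Slit2. Ratios of variance to mean moved with the thinning depth. At 8000 UMIs they were 2.72 and 2.62 for Nrp2 and 1.82 and 2.00 for Slit2 at 37°C and 39°C, and 1.34 for Robo3 at 39°C. In G1 cells alone, at 5000 UMIs, they were 1.64 and 1.63 for Slit2 and 1.20 and 1.18 for Robo3.

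Libraries of the 2 temperatures share replicate numbers. Deviations of same-numbered libraries from their group means correlated at -0.11, -0.08, -0.07 and 0.20 over genes. Pairs of unlike number ran from -0.23 to 0.22, so these few values cannot tell whether the numbers mark pairs, and the labels do not say. With the replicate block 32 members were higher and 5 lower in all cells (4880 and 4737 over all genes, against 4976 and 4827) and 22 and 7 in G1 cells. Depth limits the members under 1 CPM most.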
